A study of Mus musculus with 6 samples.

Results

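Ccl17-high Ccr7-negative antigen-presenting cells are cells of the transplanted mouse colon that carried many transcripts of Ccl17, a chemokine, together with MHC class II genes and without Ccr7, the receptor that directs dendritic cells to lymph nodes. They were chosen by measured values: at least 5 Ccl17 UMIs (unique molecular identifiers, 1 per captured transcript), 0 UMIs of Ccr7, Epcam, Nos2 and Arg1, fewer than 5 of Gpnmb, at least 5 of H2-Ab1 and Cd74 together, and at most 1 over 6 T-cell receptor genes. There were 377 such cells among 39613 cells that held at least 500 genes and at most 10% mitochondrial UMIs. Because Ccl17 and the gate genes chose the cells, those genes are given as descriptions and support nothing.

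The study transplanted mice with bone marrow alone (BM) or with bone marrow plus spleen cells, which causes graft versus host disease (GVHD), an attack of donor T cells on host tissue. Colon cells of 6 groups were profiled by droplet single-cell RNA sequencing, with 1 library per group. The macrophage libraries came from donor cells sorted as CD11b+ CD64+: a GVHD library, a BM library, and a pair from IL-34-/- recipients, labelled IL34KO, and wild-type (WT) recipients. The T-cell libraries came from donor T cells sorted from IL-34-/- and WT recipients. IL-34 is a ligand of CSF-1R, the receptor that keeps macrophages alive, and the title of the study names the gut epithelium as its source. Strain, age, time after transplant and the spleen cells given to the IL-34-/- and WT recipients are not given in the sources used here, nor is it stated whether macrophage and T-cell libraries share mice. Both a 5′ and a 3′ kit are named for every library, without saying which library used which.

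CCL17 binds CCR4, a receptor on regulatory T cells, helper T cells of the type 2 kind and skin-homing T cells, and CCL22 is the other ligand of that receptor. In mice Ccl17 is transcribed in dendritic cells and in monocyte-derived cells exposed to GM-CSF or to IL-4, which signal through STAT5 and STAT6. Plet1 encodes a surface protein carried by subsets of intestinal dendritic cells, and Dcstamp encodes a membrane protein needed for the fusion of macrophages and osteoclasts.

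Promoter bases are shown for Ccl17, whose UMIs chose the cells, and for Plet1, the gene ranked first among those higher in these cells. The windows are the 250 bases before the RefSeq transcription start (GRCm38.p6), and 5 of the 6 genes looked up (Ccl17, Ccl22, Plet1, Mmp12 and Itgax, but not Dcstamp) were matched by symbol. Ccl17 (ENSMUSG00000031780) lies at chr8:94810453-94812036 on the + strand and its window at chr8:94810203-94810452, and Plet1 (ENSMUSG00000032068) lies at chr9:50494525-50505482 on the + strand and its window at chr9:50494275-50494524. Capitals mark motif matches on either strand: TTCNNNGAA and TTCNNNNGAA, the STAT dimer motif with a 3-base or 4-base spacer, and TGANTCA, the AP-1 motif.
Ccl17: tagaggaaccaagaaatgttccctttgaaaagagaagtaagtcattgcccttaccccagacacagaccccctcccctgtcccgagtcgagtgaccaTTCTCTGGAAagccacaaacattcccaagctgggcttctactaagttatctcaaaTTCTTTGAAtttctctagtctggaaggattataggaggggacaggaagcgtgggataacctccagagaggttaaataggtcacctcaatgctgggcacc
Plet1: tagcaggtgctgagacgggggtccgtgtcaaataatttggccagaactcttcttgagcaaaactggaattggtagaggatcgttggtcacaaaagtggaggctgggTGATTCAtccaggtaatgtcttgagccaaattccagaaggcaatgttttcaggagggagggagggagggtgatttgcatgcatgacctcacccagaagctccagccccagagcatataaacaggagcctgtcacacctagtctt
The Ccl17 window held the 4-base-spacer motif 154 bases and the 3-base-spacer motif 99 bases before the start. The Plet1 window held the AP-1 motif 144 bases before the start. Among 32851 promoter windows of the same length, 5.85% held the 4-base-spacer motif, 7.02% the 3-base-spacer motif and 6.75% the AP-1 motif. The Itgax window also held the 4-base-spacer motif and the AP-1 motif, at 127 and 56 bases, and the Ccl22 window held none of these. Mmp12 has 2 start sites in the table, and an AP-1 motif lay 44 bases before the second. A match is a description of letters in the window and not evidence of binding.

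Ccl17-high Ccr7-negative cells were found in every library, in very different numbers. The GVHD library held 46 of them among 2698 filtered cells, and the BM library 2 among 2546. The macrophage library labelled IL34KO held 51 among 6494 cells, and the WT macrophage library 77 among 5245. The T-cell library labelled IL34KO held 77 among 8569, and the WT T-cell library 124 among 14061. The T-cell libraries are mixed: 1475 and 2525 filtered cells had at least 5 T-cell gene UMIs and at most 2 class II UMIs. In the same order, 2074 and 3500 cells passed the gates used here at any Ccl17 level. Shares in the T-cell libraries are thus taken over a mixture of cells.

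As a share of filtered cells they made up 1.71% of the GVHD library (exact Clopper-Pearson 95% interval 1.25 to 2.27%) and 0.0786% of the BM library (0.00952 to 0.284%). These intervals, like all others here, cover counting error only and not the variation between mice, and with 1 library per group no comparison has a replicate check. The share was 0.785% (0.585 to 1.03%) in the macrophage library labelled IL34KO and 1.47% (1.16 to 1.83%) in the WT macrophage library, and these 2 intervals do not overlap. It was 0.899% (0.710 to 1.12%) in the T-cell library labelled IL34KO and 0.882% (0.734 to 1.05%) in the WT T-cell library, with overlapping intervals.

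Taken instead over cells that passed the same gates at any Ccl17 level, the share was 6.23% (4.60 to 8.23%) in the GVHD library and 0.115% (0.0140 to 0.416%) in the BM library. On this denominator the macrophage libraries had 4.31% (3.22 to 5.63%) where labelled IL34KO and 5.69% (4.51 to 7.06%) for WT, with overlapping intervals, so the separation between them held over filtered cells only. The T-cell libraries had 3.71% (2.94 to 4.62%) where labelled IL34KO and 3.54% (2.96 to 4.21%) for WT. The rule counts UMIs, so it depends on depth: with every cell thinned to 2000 UMIs and the rule applied again, the share was 0.752% in the GVHD library and 0.0836% in the BM library. The thinned shares were 1.32% and 1.95% in the IL34KO and WT macrophage libraries, and 0.865% and 0.807% in the IL34KO and WT T-cell libraries. Thinning makes 5 Ccl17 UMIs harder to reach and the gates at 0 UMIs easier to pass. The thinned cells are therefore not the same set: in the IL34KO and WT macrophage libraries 77 and 95 passed, against 51 and 77 before. WT stayed above IL34KO among macrophage libraries, but the GVHD library no longer stood above the libraries other than BM. GVHD stayed above BM, but barcodes found in both were dropped from the BM library only, as described below.

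**Figure D1:**
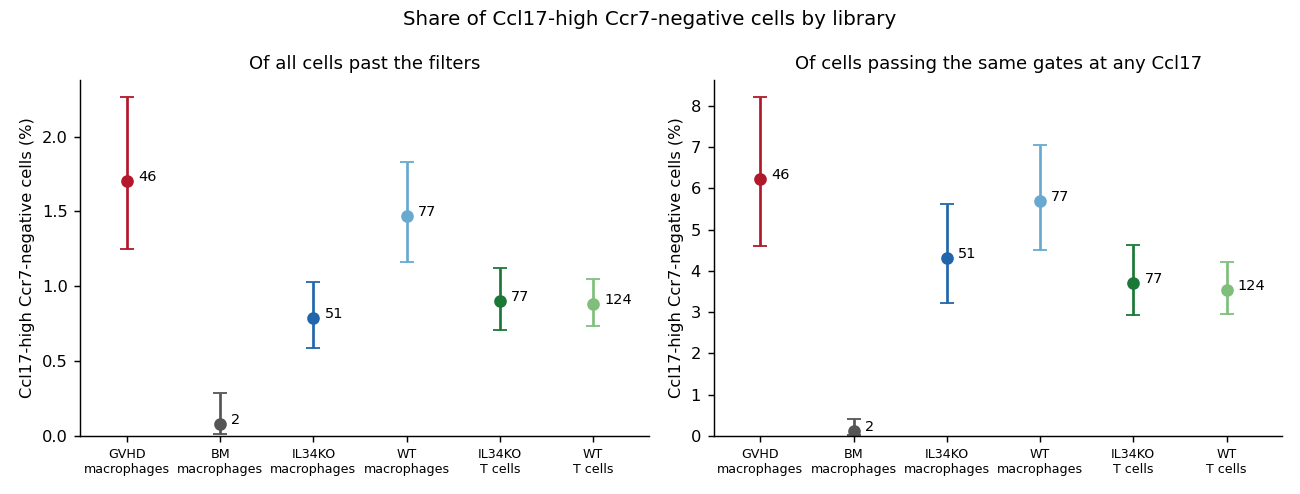
Share of Ccl17-high Ccr7-negative cells in each of the 6 libraries, as a percent of all filtered cells (left) and of cells past the same gates at any Ccl17 level (right). Points are shares with exact 95% intervals and numbers are cells. The BM library sits at 0.0786% of filtered cells and the GVHD library at 1.71%, with barcodes found in both dropped from the BM library only.

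The GVHD and BM libraries are not separate in their barcodes. They shared 2502 cell barcodes, which were dropped from the BM library, whereas no other pair of libraries shared more than 75. Of the 46 Ccl17-high cells of the GVHD library, 45 (97.8%) had a barcode that also occurred in the BM library, against 78.6% of its same-gate cells without Ccl17 and 82.0% of all its filtered cells. Those 45 barcodes had a median of 16300 UMIs in the GVHD library and 1375 UMIs in the BM library, and held 888 Ccl17 UMIs in the GVHD library and 79 in the BM library. Without any shared barcode, 1 of 486 GVHD cells was a Ccl17-high Ccr7-negative cell, against 2 of 2546 BM cells, too few to rank the libraries. With shared barcodes kept in the BM library its share was 0.435%. Every value for the GVHD library below therefore rests almost wholly on barcodes present in both.

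Total depth ranged over the libraries from 43660889 to 114425913 UMIs. Ccl17-high cells were not shallow: their median was 16060 UMIs per cell in the GVHD library, 29690 for the 2 BM cells, 10160 and 12140 in the IL34KO and WT macrophage libraries, and 8251 and 6596 in the IL34KO and WT T-cell libraries. T cells, which do not make Ccl17, gave the background: between 0 and 5.79% of T cells per library had any Ccl17 UMI (median depth 2999 to 6015 UMIs), the highest count in a T cell was 3, and none had 5.

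Ccl17 itself spanned a wide range among the chosen cells, by description only. The median was 18 UMIs per cell in the GVHD library, 10.5 in the BM library, 14 and 15 in the IL34KO and WT macrophage libraries, and 11 in each T-cell library, with a highest value of 131. These cells held between 6.29 and 13.1% of the Ccl17 UMIs of filtered cells in their library, so most Ccl17 transcripts lay in other cells. Just inside the threshold, at 5 to 7 UMIs, Plet1 measured 52.2 CPM (UMIs of the gene per 1000000 UMIs summed over the cells) in the GVHD library, 156 and 515 CPM in the IL34KO and WT macrophage libraries, and 628 and 336 CPM in the IL34KO and WT T-cell libraries. Just outside it, at 3 or 4 UMIs, the same libraries in that order had 220, 565, 286, 168 and 330 CPM. Cells on the 2 sides thus lay in one range, and the threshold marks no visible step.

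The gates acted on 2456 filtered cells with at least 5 Ccl17 UMIs. The Ccr7 gate removed 788 of them (32.1%), the class II gate 1, the T-cell gate 100, the Epcam gate 499 of the 1567 that were left (31.8%), the Nos2 gate 612 of 1068 (57.3%), the Arg1 gate 73 and the Gpnmb gate 6. Nos2 encodes the inducible nitric oxide synthase of inflammatory macrophages, and its gate took the largest share of the cells that reached it. Of the 788 Ccr7-positive cells, 17 had Fscn1, the actin-bundling gene of mature migratory dendritic cells, while 677 had at least 5 C1q UMIs and 459 had Nos2. A Ccr7 UMI therefore rarely came with Fscn1 in these libraries, and mature dendritic cells (Ccr7 with Fscn1) numbered between 0 and 9 per library, too few for a comparison.

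Cells lost at the Epcam gate differed in their other epithelial RNA. Epcam is an adhesion gene of epithelium that is also known from Langerhans cells. Of the Ccl17-high cells that failed the Epcam gate alone, 12 of 20 in the GVHD library had no UMI of Krt8, Krt18, Krt19, Lgals4 or Phgr1, as did 6 of 45 and 11 of 49 in the IL34KO and WT macrophage libraries, and 19 of 44 and 24 of 49 in the IL34KO and WT T-cell libraries. In the 20 cells of the GVHD library Krt8, a keratin of gut epithelium, measured 14.5 CPM, against 1458 CPM in the Epcam-positive cells without Ccl17 of that library. In the macrophage library labelled IL34KO, Krt8 was far higher in the Epcam-positive Ccl17-high cells, at 640 CPM, and in the WT macrophage library it was 53.0 CPM. It was 41.2 CPM in the T-cell library labelled IL34KO and 578 CPM in the WT T-cell library. Muc2, the goblet cell mucin, ran differently: it was at 17.0 CPM in the GVHD library, 374 and 1336 CPM in the IL34KO and WT macrophage libraries, and 77.2 and 59.7 CPM in the IL34KO and WT T-cell libraries. The part of epithelial RNA in this gate differed by library and was not tested.

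The label was checked against marker genes. Complement C1q, made by macrophages, was present with at least 2 UMIs in 365 of the 377 cells (96.8%), and Csf1r, the receptor for CSF-1 and IL-34, in 335 (88.9%). Itgax, which encodes the integrin CD11c of dendritic cells and many gut macrophages, was present in 348 (92.3%). Ccr2, the receptor of monocyte-derived cells, was present in 294 (78.0%). Among the 3 marker genes of the label, Dcstamp was detected in 307 cells (81.4%) and Plet1 in 237 (62.9%), Ccl17 being the rule itself. Flt3, the cytokine receptor that defines conventional dendritic cells, had a UMI in only 4 cells (1.06%), and Zbtb46, a transcription factor of that lineage, in 42 (11.1%).

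Shares of cells with a UMI were set beside those of T cells. In 5 libraries (all but BM) thinned to 2000 UMIs per cell, 72.7 to 90.1% of Ccl17-high cells kept at least 2 C1q UMIs, against 0 to 3.81% of T cells, which do not make C1q. The thinned share with Csf1r was 50.7 to 57.8%, against 1.12 to 2.66% of T cells, and with Plet1 26.7 to 60.8%, against 0 to 1.12%. Zbtb46 was at 1.65 to 5.195% of thinned Ccl17-high cells and at 2.66 to 10.1% of thinned T cells, but at 0.169 to 1.42% of thinned same-gate cells without Ccl17, below the Ccl17-high cells in each of the 5 libraries. T cells thus set no clean background for Zbtb46, and its shares are given as values only. The data thus show C1q, Csf1r and Itgax in most of these cells and almost no Flt3, and the cells are called by their rule and given no cell type name.

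The summed levels of 14 marker lists were taken in each of those 5 libraries. Of the resident macrophage list all 20 markers had UMIs, with a summed level of 4604 to 6254 CPM in the Ccl17-high cells and 7062 to 19190 CPM in same-gate cells without Ccl17. For monocytes all 15 markers had UMIs, at 1796 to 3143 CPM against 2658 to 6418 CPM. The common list of conventional dendritic cells (10 of 10 markers) summed to 576 to 770 CPM against 406 to 513 CPM, but of its 3 measured genes Itgax alone was 2-fold higher and their median log2 ratio was -0.09. The list of the cross-presenting cDC1 type (10 of 10) summed to 1084 to 1453 CPM against 748 to 1016 CPM, and that of the cDC2 type (8 of 10, Cd209a and Cd7 at 0) to 755 to 911 CPM against 539 to 727 CPM. Of 6 measured cDC1 genes Clec9a alone was 2-fold higher (median log2 ratio 0.49), and of 4 measured cDC2 genes Irf4 alone (median 0.73).

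Several other lineages lacked UMIs of defining genes, while neutrophil and lymphocyte lists did have UMIs. In the mature dendritic cell list (9 of 11, at 430 to 606 CPM against 388 to 576 CPM) Fscn1 was at 0, and in the plasmacytoid list (5 of 8, at 197 to 243 CPM against 194 to 352 CPM) Siglech was at 0. The B-cell list (2 of 8) summed to 0 to 1.86 CPM against 6.76 to 29.6 CPM, with Cd79a and Ms4a1 at 0. Mast cell and basophil markers (1 of 8, 4.78 to 110 CPM against 12.1 to 194 CPM) rested on Hdc alone, and eosinophil markers (2 of 5, 5.15 to 15.6 CPM against 3.69 to 5.61 CPM) lacked Prg2 and Epx. Neutrophil markers (9 of 9) ranged widely, at 388 to 2563 CPM against 463 to 4700 CPM. T-cell and innate lymphocyte markers outside the gate (5 of 6, Ncr1 at 0) were at 178 to 364 CPM, against 66.4 to 149 CPM, of which Il7r alone made 172 to 347 CPM, against 59.9 to 134 CPM. Epithelial markers (10 of 10) were at 98.5 to 215 CPM against 92.9 to 247 CPM, and stromal markers (8 of 9, Col1a1 at 0) at 26.7 to 57.4 CPM against 36.9 to 189 CPM. The part of these lineages in the results below was not tested.

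**Figure D2:**
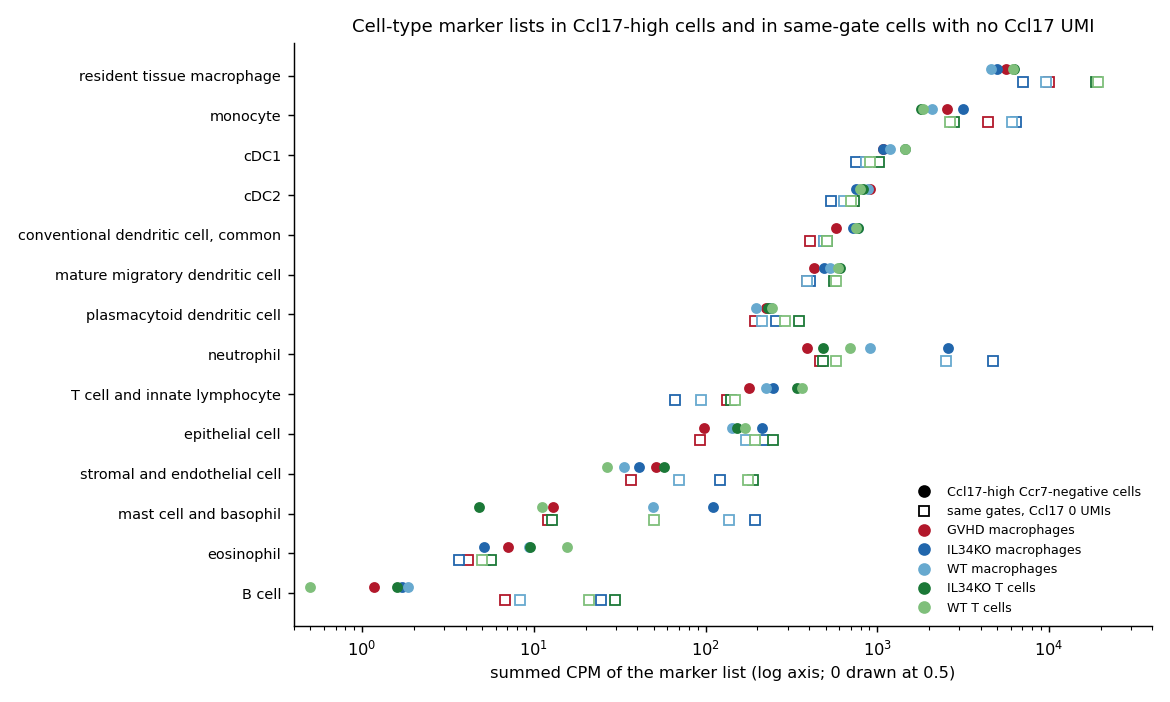
Summed CPM of 14 cell-type marker lists (log axis, 0 drawn at 0.5) in Ccl17-high Ccr7-negative cells (filled circles) and in same-gate cells with no Ccl17 UMI (open squares), 1 symbol per library and the BM library left out. The sums of the resident macrophage and monocyte lists are lower, and those of the cDC1, cDC2 and common dendritic cell lists higher, in the Ccl17-high cells of each library. Only 1 measured gene of each of these dendritic cell lists was 2-fold higher: Clec9a (cDC1), Irf4 (cDC2) and Itgax (common).

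The Ccl17-high cells were set beside the cells that passed the same gates with no Ccl17 UMI, called Ccl17-0 cells here: 626 in the GVHD library, 1000 and 1097 in the IL34KO and WT macrophage libraries, and 1821 and 3090 in the IL34KO and WT T-cell libraries. UMIs were summed per class and library. A gene counted as higher or lower where its CPM differed at least 2-fold in the same direction in each of the 4 libraries with at least 50 Ccl17-high cells, which leaves out GVHD (46) and BM (2). Of 5451 measured genes 17 were higher (0.312%) and 46 lower (0.844%), with a median log2 ratio over all genes of -0.05. The rule used this contrast, so these counts describe the cells and nothing is read from them. In the GVHD library 10 of the 17 and 29 of the 46 were also 2-fold different, and 16 and 44 had the same sign; over all measured genes 39 were 2-fold higher and 152 lower there.

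Plet1 ranked first among the higher genes, on the lowest log2 ratio over libraries with 5 CPM added. It measured 273 CPM in the Ccl17-high cells of the GVHD library, 494 and 428 CPM in those of the IL34KO and WT macrophage libraries, and 680 and 536 CPM in those of the IL34KO and WT T-cell libraries. In the Ccl17-0 cells of the same libraries, in that order, it measured 57.7, 45.4, 42.8, 58.8 and 54.2 CPM. The groups do not overlap, and the ratios were 4.73 (4.03 to 5.55), 10.9 (9.33 to 12.7), 10.0 (8.78 to 11.4), 11.6 (10.2 to 13.1) and 9.88 (8.84 to 11.02), with exact 95% intervals. GVHD had the lowest level and the lowest ratio.

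Dcstamp was likewise lowest in the GVHD library. In the Ccl17-high cells it measured 152 CPM in the GVHD library, 551 and 482 CPM in the IL34KO and WT macrophage libraries, and 669 and 700 CPM in the IL34KO and WT T-cell libraries. In the Ccl17-0 cells, in that order, it measured 67.5, 90.5, 103, 122 and 127 CPM. Ccl22, the second CCR4 ligand and a gene near Ccl17 on chromosome 8, had few UMIs and a larger ratio: 61.0, 84.1, 59.6, 107 and 77.9 CPM in the Ccl17-high cells against 6.76, 4.81, 3.502, 3.65 and 7.15 CPM in the Ccl17-0 cells. Its ratio was 9.02 in the GVHD library and 10.9 to 29.3 in the others, and 29.03 to 39.2% of Ccl17-high cells per library had a Ccl22 UMI.

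Mmp12, the macrophage elastase, measured 1712 CPM in the Ccl17-high cells of the GVHD library, 2157 and 2081 CPM in the IL34KO and WT macrophage libraries, and 2446 and 2121 CPM in the IL34KO and WT T-cell libraries. In the Ccl17-0 cells, in that order, it measured 779, 369, 456, 502 and 439 CPM. Itgax was 2.09 to 2.58 times higher in the 5 libraries, at 319 to 468 CPM against 153 to 199 CPM. Irf4, a transcription factor required by cDC2 and by monocyte-derived dendritic cells, was at 68.0 to 117 CPM against 17.7 to 37.7 CPM. Its ratio was 1.81 in the GVHD library and 2.31 to 3.98 in the others.

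Other higher genes came from several families. Il7r, the receptor chain for IL-7 and TSLP, was at 172 to 347 CPM in the Ccl17-high cells, against 59.9 to 134 CPM in the Ccl17-0 cells, with a ratio of 1.39 in the GVHD library and 2.56 to 4.07 in the others. Clec9a, a cDC1 lectin that binds dead cells, was at 31.6 to 119 CPM against 17.6 to 35.6 CPM, while Xcr1, the chemokine receptor that marks cDC1, was at 0 in the Ccl17-high cells of 3 libraries and at 7.97 and 16.7 CPM in the IL34KO and WT T-cell libraries. Klrb1b, a lectin-like receptor of the natural killer locus, was at 204 to 317 CPM against 87.1 to 129 CPM. Ear2, an RNase of eosinophils and myeloid cells, was at 271 to 433 CPM against 87.4 to 187 CPM. Mical2, an actin-oxidising enzyme, AA467197, which encodes a small mitochondrial protein, Lmo4, a LIM-only transcriptional cofactor, and Mmp25, a membrane-bound metalloprotease, completed the genes named on this side. Pde4d, a phosphodiesterase of cyclic AMP, ranked beside them but reached only 1.96-fold in the WT T-cell library and was not counted as higher.

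**Figure D3:**
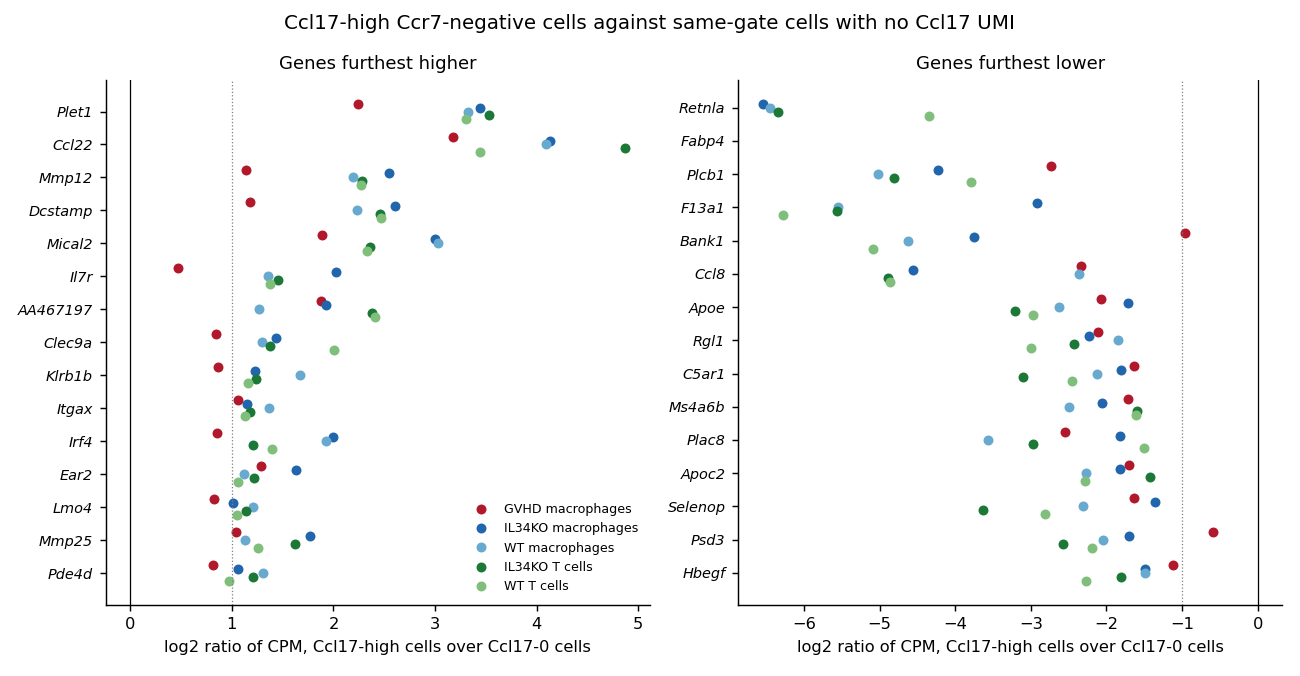
log2 ratio of CPM, Ccl17-high Ccr7-negative cells over same-gate cells with no Ccl17 UMI, for the 15 genes furthest higher (left) and lower (right), 1 point per library. The dotted line is a 2-fold difference; GVHD points often lie nearest to 0, and a gene with 0 UMIs in the Ccl17-high cells of a library, such as Fabp4 in all 5, has no point there.

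Apolipoproteins were among the named lower genes. Apoe, the lipid carrier of macrophages, measured 863 CPM in the Ccl17-high cells of the GVHD library, 559 and 549 CPM in the IL34KO and WT macrophage libraries, and 996 and 1221 CPM in the IL34KO and WT T-cell libraries. In the Ccl17-0 cells, in that order, it measured 3633, 1830, 3389, 9183 and 9590 CPM. It was thus 3.27 to 9.22 times lower, and the groups do not overlap. Apoc2, another apolipoprotein, and Selenop, the plasma selenium carrier made by resident macrophages, were lower as well: Selenop was at 38.2 to 71.5 CPM against 128 to 474 CPM.

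Fabp4, a fatty-acid binding protein, was at 0 UMIs in the Ccl17-high cells of all 5 libraries. Against a floor of 3 counts per library, it was at least 4.59-fold lower in the GVHD library, at least 18.9- and 12.9-fold lower in the IL34KO and WT macrophage libraries, and at least 24.3- and 29.4-fold lower in the IL34KO and WT T-cell libraries. Retnla, the resistin-like product of IL-4-activated macrophages, was at 0.931 to 4.45 CPM in the Ccl17-high cells of the 4 larger libraries, against 81.5 to 160 CPM in their Ccl17-0 cells. In the GVHD library Retnla was at 0 in the Ccl17-high cells and 2.88 CPM in the Ccl17-0 cells, too low for a fold at the floor. Ccl8, a monocyte chemoattractant of resident macrophages, was at 1.72 to 10.0 CPM against 11.9 to 290 CPM, with the highest Ccl17-0 levels in the T-cell libraries.

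Monocyte genes were among the lower ones. Ly6c2, which marks newly arrived inflammatory monocytes, was at 27.0 CPM in the Ccl17-high cells of the GVHD library, 110 and 12.1 CPM in the IL34KO and WT macrophage libraries, and 11.2 and 30.1 CPM in the IL34KO and WT T-cell libraries. Their Ccl17-0 cells, in that order, had 71.5, 394, 303, 83.5 and 74.2 CPM. F13a1, clotting factor XIII of monocytes, Plac8, Hp (haptoglobin) and Chil3 (a chitinase-like protein) were lower too, except that Hp was at 86.7 against 85.0 CPM in the GVHD library. F13a1 was at 0 in the GVHD library and at 1.11 to 8.58 CPM elsewhere against 64.7 to 87.6 CPM. C5ar1, the receptor for complement C5a, was at 11.2 to 29.3 CPM against 83.8 to 95.5 CPM. Adgre1, which encodes F4/80, was at 34.5 to 51.6 CPM against 97.2 to 186 CPM, and Fcgr1, which encodes the CD64 used in the sort, was at 49.8 to 80.9 CPM against 95.1 to 139 CPM. Itgam, which encodes the CD11b of the sort, was at 67.9 to 186 CPM against 206 to 316 CPM. Plcb1, a phospholipase, Rgl1, a Ral exchange factor, Bank1, a signalling scaffold, Ms4a6b, a tetraspan-like membrane protein, Psd3, an Arf exchange factor, and Hbegf, a growth factor of the EGF family, were the remaining named genes.

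Several identity genes did not reach 2-fold in each of the 4 libraries. Csf1r measured 352 CPM in the Ccl17-high cells of the GVHD library, 427 and 419 CPM in the IL34KO and WT macrophage libraries, and 360 and 362 CPM in the IL34KO and WT T-cell libraries, against 476, 462, 461, 500 and 515 CPM in the Ccl17-0 cells. C1qa was at 952 to 1256 CPM against 1147 to 2293 CPM, and Ccr2 at 304 to 429 CPM against 291 to 447 CPM. H2-Aa, a class II chain outside the gates, was 1.06 to 1.35 times higher. Pdcd1lg2, which encodes the checkpoint ligand PD-L2, was 1.88 to 3.33 times higher, and Mgl2, a galactose lectin of cDC2 and of IL-4-activated macrophages, 1.47 to 2.70 times.

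Gene lists differed in their medians, the monocyte list by the most among those described here. Of 9 measured genes of MHC class II and its loading none was 2-fold different (median log2 ratio 0.27, against -0.05 over all genes). Of 13 monocyte genes 5 were lower and none higher (median -1.21), and of 14 resident macrophage genes 4 were lower and none higher (median -0.78). In the chemokine list of 15 genes, Ccl22 was higher, Ccl2, Ccl3 and Ccl8 were lower, and the median was -0.27. Of 21 genes of GM-CSF and IL-4 signalling, Ccl22 and Irf4 were higher, Chil3 and Retnla lower, and the median was 0.10: the genes that moved include IL-4 targets on both sides. Of 15 Fc receptor and complement genes 4 were lower (median -0.57). Of 13 type I interferon genes 1 was lower, Ifitm3 (median -0.78), and of 23 interferon-gamma genes 1, Fcgr4 (median -0.23). No gene of glycolysis (22 measured, median 0.24), oxidative phosphorylation (24, median 0.27), the cell cycle (7, median 0.06) or the dissociation stress list (18, median -0.32) passed 2-fold in each library.

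The levels changed along the whole range of Ccl17 and not only at the threshold. Same-gate cells of the 5 libraries were divided by Ccl17 UMIs into 0 (7634 cells), 1 to 4 (841), 5 to 9 (145), 10 to 29 (157) and 30 or more (73), with Ccl17 left out of the total. The mean level of Plet1 over libraries was 51.8, 164, 394, 486 and 636 CPM along these bins. That of Dcstamp was 102, 231, 446, 476 and 684 CPM, and that of Mmp12 509, 1027, 1506, 2213 and 2794 CPM. Apoe ran the other way, at 5525, 2977, 1172, 752 and 408 CPM, while Ccr2 stayed between 325 and 367 CPM. Cells with 1 to 4 Ccl17 UMIs thus lay between the Ccl17-0 and the Ccl17-high cells for each of these genes but Ccr2.

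Single libraries were less even than the mean. The bins with fewer than 20 cells were 5 to 9 UMIs in the GVHD library (13 cells) and in the macrophage library labelled IL34KO (19), and 30 or more in the GVHD (8), IL34KO macrophage (12), IL34KO T-cell (15) and WT T-cell (18) libraries. In the GVHD library Plet1 was at 35.2 CPM in the bin of 5 to 9 UMIs, below its 135 CPM at 1 to 4 UMIs, and at 444 CPM at 10 to 29. In the WT T-cell library, where only the last bin is thin, Plet1 was at 54.2, 194, 306, 600 and 1029 CPM. Depth moved with the bins as well: in the WT macrophage library the median was 9362 UMIs in Ccl17-0 cells and 15040 in cells with 30 or more Ccl17 UMIs, and its part in the trend was not tested.

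**Figure D4:**
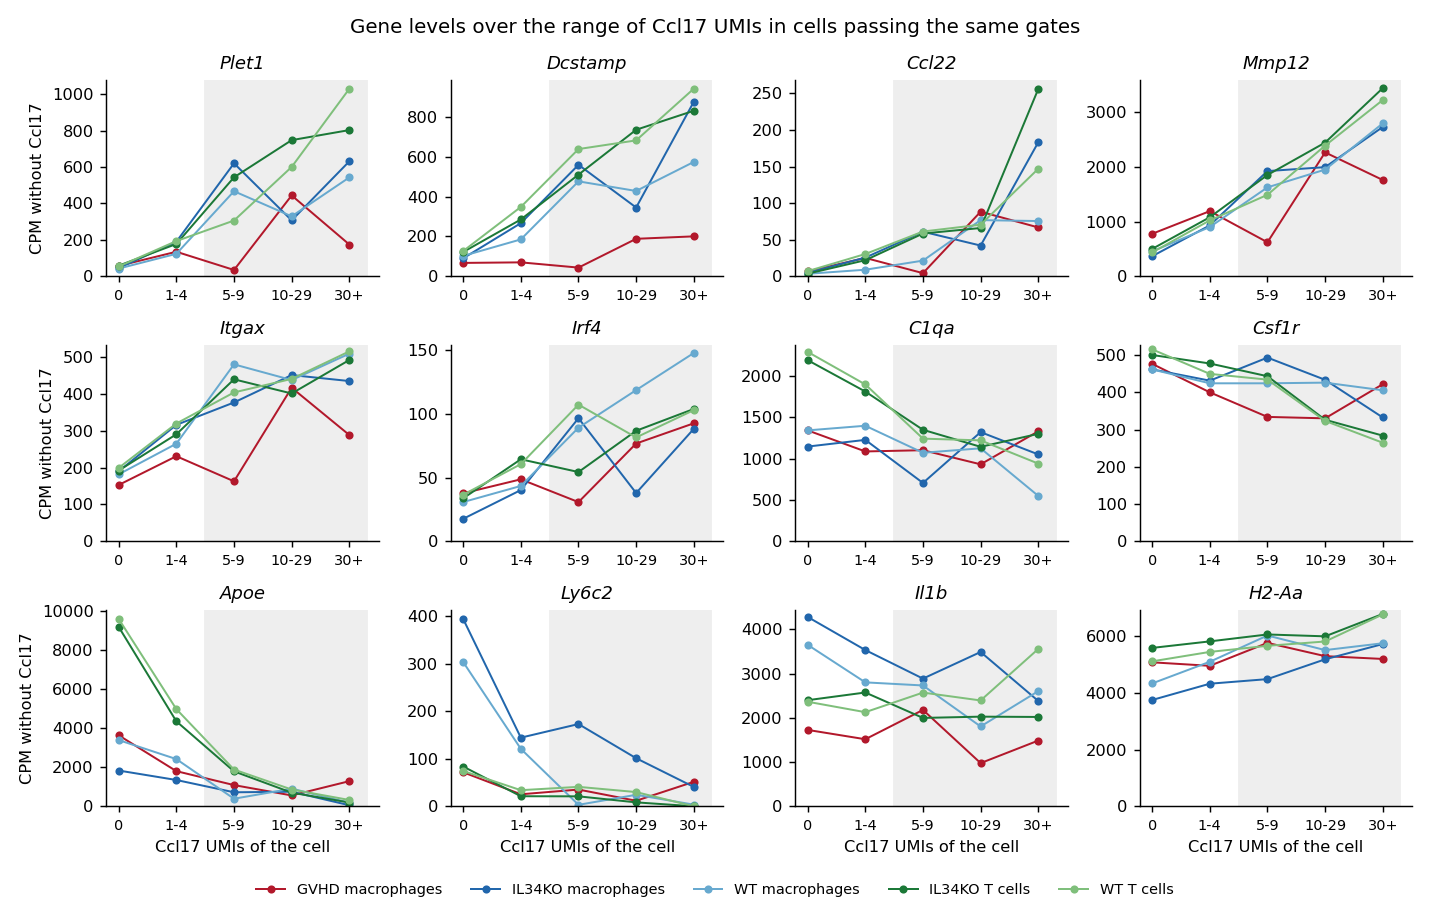
CPM (Ccl17 left out of the total) of 12 genes in same-gate cells divided by the Ccl17 UMIs of the cell, 1 line per library and the BM library left out; shading marks the bins of Ccl17-high cells. Plet1, Dcstamp, Ccl22, Mmp12, Itgax and Irf4 are higher, and Apoe and Ly6c2 lower, towards high Ccl17, and the GVHD line dips for several genes in the bin of 5 to 9 UMIs, which holds 13 cells.

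Within the Ccl17-high cells, levels varied widely from cell to cell. Over all 377 cells Plet1 had a median of 229 CPM, with 0 at the 25th percentile and 1421 CPM at the 90th. Mmp12, present in more cells, had 194 CPM at the 10th percentile, a median of 1664 CPM and 4603 CPM at the 90th. Cxcl9, an interferon-gamma-induced chemokine, and Il1b, the inflammatory cytokine, had medians of 498 and 1671 CPM. Ccl22 had a UMI in 127 cells (33.7%) and Irf4 in 185 (49.1%). At least 2 UMIs over 8 cell-cycle genes were seen in 102 cells (27.1%), but after thinning this share was 2.22 to 11.7% per library. Thinned Ccl17-0 cells were at 7.88 to 9.01%, within that range, and thinned T cells at 12.4 to 21.4%.

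Ccl17-high cells with and without a Plet1 UMI differed in the same direction in every library for few of the genes examined. Mmp12 was higher in the Plet1-positive cells of all 5 libraries, by 1.18 to 2.83 times, and Itgax by 1.02 to 1.55 times. Dcstamp was higher in 4 of 5 (ratio 0.979 to 2.61). Csf1r was lower in all 5 (0.805 to 0.961), as was Ly6c2 (0.305 to 0.782). Ccr2 was lower in 4 of 5 (0.563 to 1.13) and Mgl2 likewise (0.591 to 1.55). Deeper cells have more chance of a Plet1 UMI, and no test was made.

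A narrower comparison used macrophages only. Against Ccl17-0 cells with at least 5 C1q UMIs, 19 of 5406 genes were higher (0.351%) and 41 lower (0.758%), again a contrast the rule used. The 5 genes furthest higher were Plet1, Ccl22, Dcstamp, Mmp12 and Mical2, which were also the first 5 against all Ccl17-0 cells. Actn1, the actin crosslinker alpha-actinin, entered the named genes here, at 43.8 to 84.6 CPM against 14.2 to 23.0 CPM. C1q macrophages are part of the Ccl17-0 cells: 674 of 1000 in the IL34KO macrophage library, 2742 of 3090 in the WT T-cell one. The Ccl17-high cells were the same in both comparisons, so this agreement of leading genes was largely set in advance and supports nothing.

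A further comparison, added after the data were seen, set these cells beside the Ccl17-high cells that passed every other gate but carried Nos2, Arg1 or high Gpnmb, 691 cells in all. Of 5129 measured genes 7 were higher (0.136%) and 34 lower (0.663%), with a median log2 ratio of 0.04 over all genes. The gates of the rule set this contrast too, so the counts and genes describe the cells and nothing is read from them. Plet1 was 1.22 to 1.41 times higher and Dcstamp 0.708 to 0.908 of the level. Both kinds of cell were chosen for high Ccl17, and both carried Plet1 and Dcstamp. Ccl22 ran in no one direction, at 0.673 to 1.87 times.

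The 7 higher genes were Mgl2, Tmem176a, Pip4k2a, Slamf9, Klrk1, Cadm1 and Pltp. Mgl2 measured 237 CPM in the Ccl17-high Ccr7-negative cells of the GVHD library, 237 and 263 CPM in the IL34KO and WT macrophage libraries, and 271 and 222 CPM in the IL34KO and WT T-cell libraries. In the cells with Nos2, Arg1 or Gpnmb, in that order, it measured 100, 73.8, 80.4, 72.4 and 52.7 CPM. Tmem176a, a membrane channel gene of immature dendritic cells, was at 105 to 169 CPM against 36.5 to 66.0 CPM. Cadm1, an adhesion gene of cDC1, was higher in the 4 libraries (2.03 to 3.38 times) and lower in the GVHD library (1.97-fold).

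Among the lower genes, Inhba, which encodes the activin A subunit, measured 15.2 CPM in the Ccl17-high Ccr7-negative cells of the GVHD library, 202 and 161 CPM in the IL34KO and WT macrophage libraries, and 174 and 226 CPM in the IL34KO and WT T-cell libraries. In the cells with Nos2, Arg1 or Gpnmb, in that order, it measured 246, 916, 1015, 1221 and 1419 CPM, with no overlap. Spp1, which encodes osteopontin, was at 19.6 to 49.2 CPM against 112 to 511 CPM. Cxcl3, a neutrophil attractant, was at 16.8 to 30.3 CPM against 168 to 325 CPM in the 4 libraries, but at 11.7 against 14.7 CPM in the GVHD library. Hmox1, heme oxygenase, Pdpn, podoplanin, Ctsd, a lysosomal protease, Atp6v0d2, a proton-pump subunit of osteoclasts, and Met, the receptor for hepatocyte growth factor, were lower as well. Of 22 glycolysis and hypoxia genes 2 were lower, Bnip3 and Ero1l (median -0.52), and of 12 cytokine genes 1, Inhba (median -0.75).

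These counts move with single libraries, since a gene must pass in each of the 4. Against Ccl17-0 cells, leaving out the macrophage library labelled IL34KO gave 29 higher and 85 lower genes, leaving out the WT T-cell library gave 28 higher, and leaving out the WT macrophage library gave 77 lower. Adding the GVHD library gave 9 higher and 24 lower. Against C1q macrophages, 30 genes were higher and 79 lower without the macrophage library labelled IL34KO. Against the cells with Nos2, Arg1 or Gpnmb, 12, 11 and 15 genes were higher without the IL34KO macrophage, WT macrophage and IL34KO T-cell libraries, in that order.

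The comparison of recipients asks what the loss of host IL-34 changes in these cells. Il34 was checked first. Over all barcodes it had 29 UMIs in the GVHD library and 64 in the BM library, 242 UMIs (2.30 CPM) in the macrophage library labelled IL34KO and 186 (1.76 CPM) in the WT one, and 131 (1.55 CPM) in the T-cell library labelled IL34KO and 135 (1.18 CPM) in the WT one. Il34 was thus not lower in the libraries labelled IL34KO. The deleted part of the gene is not given, and a tag outside it checks nothing, so the libraries are called by their labels. Among Ccl17-high cells 1 UMI of Il34 was found, in the WT macrophage library.

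The leading genes of these cells differed by less than 1.5-fold between recipients. In the macrophage libraries Plet1 was 1.15 times higher in cells labelled IL34KO than in WT cells (interval 0.992 to 1.34), Dcstamp 1.14 times (0.992 to 1.32), Mmp12 1.04 times (0.966 to 1.11) and Csf1r 1.02 times (0.870 to 1.19). In the T-cell libraries the ratios were 1.27 (1.11 to 1.45) for Plet1, 0.956 (0.843 to 1.08) for Dcstamp, 1.15 (1.08 to 1.23) for Mmp12 and 0.995 (0.836 to 1.18) for Csf1r. Irf4 was lower in the macrophage library labelled IL34KO (70.3 CPM, against 117 CPM in WT, 1.67-fold), and at 78.1 CPM against 95.8 CPM in the T-cell libraries.

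A gene was counted where its CPM differed at least 1.5-fold between libraries. In the macrophage libraries 307 of 5709 genes were higher in cells labelled IL34KO (5.38%) and 653 lower (11.4%), with a median log2 ratio of -0.06. In the T-cell libraries 358 of 5419 were higher (6.61%) and 456 lower (8.41%), with a median of 0.00077. Between the sorts, 20 genes were higher in both (6.52% of the macrophage calls and 5.59% of the T-cell calls) and 53 lower in both (8.12% and 11.6%). These shares are near the percentages over all genes just given, so the overlap is no result about the genes in it. A further 44 of the 307 genes higher in the macrophage libraries were among the 456 lower in the T-cell libraries. Another 57 of the 653 lower in the macrophage libraries were among the 358 higher in the T-cell ones. In all, 5167 genes were measured in both sorts. Shares were not taken for these 2 counts, and nothing is read from them.

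Of the shared genes that the naming rule admits (20 higher and 51 lower), 7 higher and 13 lower had both intervals apart from 1. The share of all measured genes that would pass this was not taken, so nothing is read from these counts. A few of the genes are given here as values chosen after they were seen. Ccl4, a chemokine that attracts T cells, measured 125 CPM in the macrophage library labelled IL34KO, against 300 CPM in the WT one (2.39-fold lower), and 70.1 CPM in the T-cell library labelled IL34KO, against 149 CPM in the WT one (2.13-fold lower). Ccl17-0 cells showed the same direction with smaller differences, at 371 against 502 CPM and 442 against 483 CPM. Pstpip2, an actin adaptor of macrophages, was at 60.1 against 134 CPM and 43.0 against 109 CPM. Adam19, a membrane protease, was at 5.15 against 28.9 CPM and 20.7 against 44.5 CPM. Ccl24, an eosinophil attractant, was at 68.6 against 152 CPM and 39.8 against 95.8 CPM, but in 4 to 8 cells per library, 140 of the 163 UMIs of the WT macrophage library lying in 1 cell. In the T-cell libraries the direction of Ccl24 turned, to a ratio of 5.22, at a threshold of 10 Ccl17 UMIs.

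The 7 higher genes were Abcb1b, Cmss1, Il10rb, Kdm5a, Atf7ip, Ints6 and 9930111J21Rik2. Abcb1b, a drug efflux pump, was at 44.6 CPM in the macrophage library labelled IL34KO, against 13.04 CPM in the WT one, and at 89.2 CPM in the T-cell library labelled IL34KO, against 36.7 CPM in the WT one. It had UMIs in 8 and 6 cells of the IL34KO and WT macrophage libraries and in 9 and 15 cells of the IL34KO and WT T-cell libraries, and 29 of the 56 UMIs of the T-cell library labelled IL34KO lay in 1 cell. Il10rb, a receptor chain for IL-10, was at 75.5 against 39.1 CPM and 62.2 against 33.4 CPM. Cmss1, a ribosome biogenesis gene, was at 650 against 349 CPM and 1018 against 490 CPM, and differed likewise in the Ccl17-0 cells of the T-cell libraries (1179 against 600 CPM) and of the macrophage libraries (522 against 404 CPM).

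Several genes furthest higher in the macrophage library labelled IL34KO are known from neutrophils and monocytes. S100a9 and S100a8, the calprotectin subunits of neutrophils and monocytes, measured 1271 and 547 CPM in the library labelled IL34KO, against 197 and 90.3 CPM in the WT one. S100a9 had UMIs in 20 of 51 cells labelled IL34KO and 26 of 77 WT cells, and S100a8 in 26 and 26. The top cell labelled IL34KO held 194 of 741 S100a9 UMIs, and the top WT cell 70 of 211. For S100a8 the top cells held 102 of 319 and 23 of 97. Ly6c2 measured 110 against 12.1 CPM, in 18 and 9 cells. Plac8, a monocyte gene, measured 405 against 121 CPM, and Ccl5, a chemokine of T cells and myeloid cells, 894 against 301 CPM, with 286 of the 521 Ccl5 UMIs of the library labelled IL34KO in 1 cell. Saa3 (serum amyloid A) had 171 UMIs against 4, of which 122 lay in 1 cell, and Lcn2 (lipocalin) 80 against 1, of which 68 lay in 1 cell.

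In the T-cell libraries the calprotectin genes ran the other way on few cells. S100a9 had 0 UMIs in cells labelled IL34KO, against 106 UMIs in WT cells, 105 of them in 1 cell. S100a8 had 4 against 65, 59 of them in 1 cell. The Ccl17-0 cells carried more of both genes in the macrophage libraries: S100a9 was at 2177 CPM where labelled IL34KO and 1038 CPM in WT, and S100a8 at 1462 and 655 CPM. Tnf, the inflammatory cytokine, was lower in the T-cell library labelled IL34KO, at 39.8 CPM against 127 CPM in WT, and at 77.2 against 99.6 CPM in the macrophage libraries. Without the Nos2, Arg1 and Gpnmb gates the T-cell ratio of Tnf turned to 1.24. Acod1, which makes itaconate, was higher in the macrophage library labelled IL34KO (525 against 281 CPM) and lower in the T-cell one (49.4 against 134 CPM).

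Lists moved with these genes. Of 6 measured neutrophil genes 4 were higher in the macrophage library labelled IL34KO (median log2 ratio 1.65), and of 4 in the T-cell libraries 2 were lower (median -1.76, but 0.025 at a threshold of 10 Ccl17 UMIs). Of 12 monocyte genes 6 were higher and 1 lower in the macrophage libraries (median 0.71), and of 11 in the T-cell libraries 1 was higher and 4 lower (median -0.16). These counts stand beside 5.38% higher and 11.4% lower over all genes in the macrophage libraries, and 6.61% and 8.41% in the T-cell libraries. Type I interferon genes were 4 higher and 1 lower of 11 (median 0.50) in the macrophage libraries, and 3 lower of 8 (median -0.33) in the T-cell libraries. The 9 neutrophil markers summed to 2563 CPM in the Ccl17-high cells of the macrophage library labelled IL34KO, against 903 CPM in the WT one, and their part in the other differences was not tested. MHC class II genes (11 measured in each sort) had no member past 1.5-fold in either, with medians of -0.14 and -0.01.

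Genes lower in the macrophage library labelled IL34KO rested on few cells in several cases. Fap, a surface protease, was at 6.86 CPM against 106 CPM in WT, with UMIs in 3 and 9 cells. H2-M2, a class I-like gene of dendritic cells, was at 17.2 against 113 CPM in the macrophage libraries, and at 161 against 116 CPM in the T-cell libraries. Cadm1 was at 48.0 against 135 CPM, with 80 of its 145 WT UMIs in 1 cell.

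**Figure D5:**
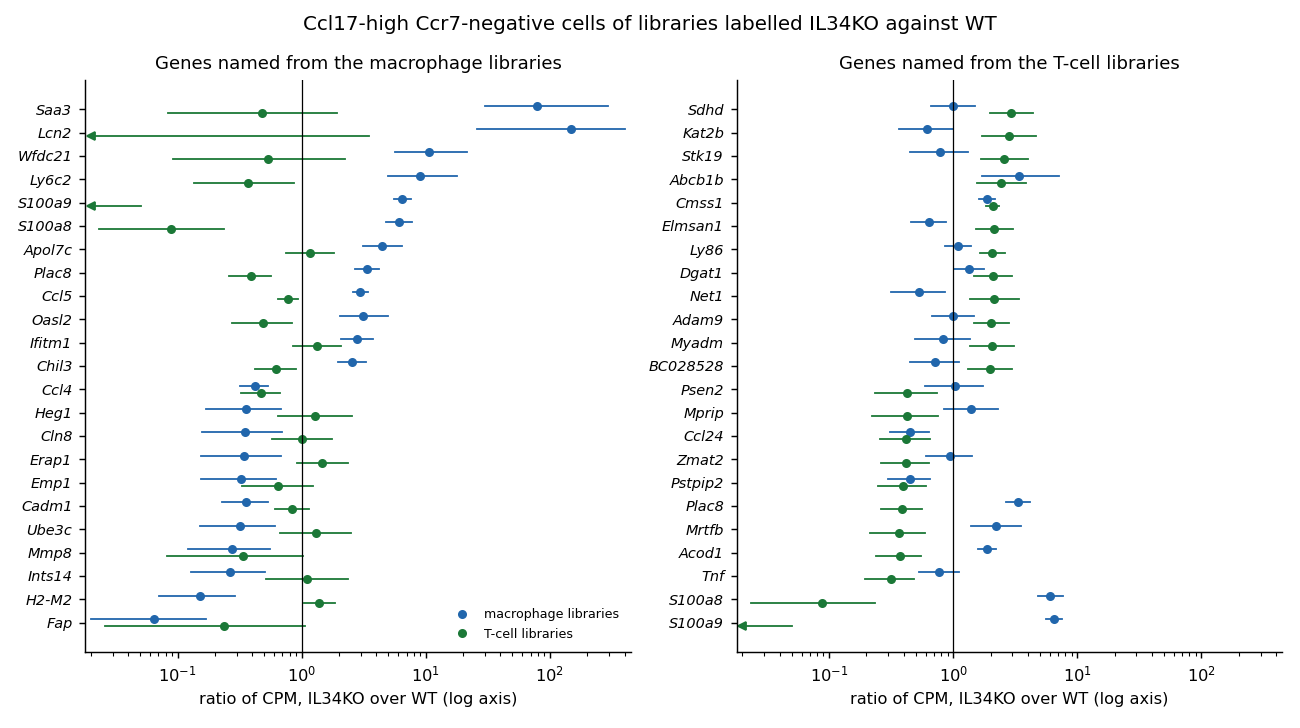
Ratio of CPM, libraries labelled IL34KO over WT, in Ccl17-high Ccr7-negative cells (log axis), with exact 95% intervals that cover counting error only, for genes named from the macrophage libraries (left) and from the T-cell libraries (right). Arrowheads mark a ratio of 0 and intervals are clipped at the panel edges; Ccl4, Ccl24, Pstpip2, Abcb1b and Cmss1 lie on one side of 1 in both sorts, whereas S100a8, S100a9 and Plac8 lie on opposite sides.

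The GVHD and BM libraries allow no comparison of genes, since the BM library held 2 of these cells. Those 2 cells had 23010 and 36370 UMIs and carried 21 Ccl17 UMIs together. Of all filtered cells, 9.82% (8.73 to 11.01%) had at least 5 Ccl17 UMIs in the GVHD library, against 0.314% (0.136 to 0.618%) in the BM library. These shares are not on equal terms. Barcodes found in both libraries were dropped from the BM library only, and 82.0% of the filtered GVHD cells carried such a barcode. Without any shared barcode, 1 of 486 GVHD cells and 2 of 2546 BM cells were Ccl17-high Ccr7-negative cells. The share with at least 5 Ccl17 UMIs was not taken without shared barcodes. Over all barcodes Ccl17 measured 129 CPM in the GVHD library and 20.7 CPM in the BM library. Shared barcodes are kept in these 2 values, and 689 of the 904 Ccl17 UMIs of the BM library lay in barcodes of filtered GVHD cells.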

How the data were processed

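The authors deposited whole-number UMI counts per gene and cell barcode for 6 libraries, 32285 genes each, made with Cell Ranger 7.0.1 on mm10, per the submitters' processing notes. The cells and gene lists were chosen with earlier results of these data known. Filters kept barcodes with at least 500 genes and at most 10% mitochondrial UMIs, 39613 of 60605 barcodes. Counts were summed per class and library and scaled to CPM over all genes. Gate genes were left out of the counted and named genes. A gene was measured at 20 CPM and 20 UMIs in 1 of the 2 classes. Ratios have exact conditional binomial 95% intervals, shares exact Clopper-Pearson intervals, and the floor was 3 counts. With 1 library per group there was no test. Named genes were the 15 furthest each way by log2 ratio with 5 CPM added in the comparisons with Ccl17-0 cells and with Ccl17-high cells carrying Nos2, Arg1 or Gpnmb, 8 each way against C1q macrophages, and 12 each way with at least 50 UMIs between recipients, some of which are not reported here. Genes of the marker and pathway lists were described beside them, and Il34, Krt8, Adam19 and Il10rb were chosen after their values were seen. T cells for background had at least 5 T-cell gene UMIs and at most 2 class II UMIs. Doublets were kept, since Scrublet's automatic threshold marked none in 4 libraries; removing the expected number by score was an alternative. Other alternatives were Ccl17 thresholds, filters, gates left out, thinning to 2000 UMIs, expression floors, TMM and median-of-ratios size factors (edgeR 4.0.16 and DESeq2 1.42.0, used for scaling only), cycling cells left out and each library left out. The planned comparisons with mature and with Flt3 dendritic cells had too few cells. The ratio and its interval were tested on simulated independent counts. That test leaves out the gathering of UMIs in single cells, so it cannot show how the intervals do for such genes. Genes were located with GENCODE M21. Python 3.11.15, scanpy 1.11.5, scipy 1.17.1 and R 4.3.3 were used.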

Additional observations from a re-analysis of the deposited data

Results flagged for a closer look

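Of the genes named between recipients, 13 had ratios on opposite sides of 1 in the macrophage and the T-cell libraries, with both exact 95% intervals apart from 1. Ccl5 and H2-M2 were within 1.5-fold in the T-cell libraries. The values are ratios of CPM in Ccl17-high Ccr7-negative cells, libraries labelled IL34KO over WT. With 1 library per group the difference between the sorts was not tested. Genes were named for the largest ratios within a sort, so they do not stand for all measured genes. Other named genes, among them Ccl4, Ccl24, Pstpip2, Abcb1b and Cmss1, lay on the same side of 1 in both sorts, with both intervals apart from 1. The share of all measured genes on opposite sides was not taken, so nothing is read from the count of 13.

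For Ly6c2 the ratio was 9.07 in the macrophage libraries and 0.371 in the T-cell libraries. S100a9 had 6.47 and 0, S100a8 6.06 and 0.0881, Plac8 3.34 and 0.387, Ccl5 2.97 and 0.777, Oasl2 3.14 and 0.486, and Chil3 2.54 and 0.618, in the same order of sorts. These 7 genes had ratios above 1 in the macrophage library labelled IL34KO and below 1 in the T-cell one. Acod1 (1.87 and 0.370) and Mrtfb (2.20 and 0.367) showed the same pattern. The opposite pattern was seen for H2-M2 (0.152 and 1.39), Kat2b (0.614 and 2.81), Elmsan1 (0.638 and 2.15) and Net1 (0.533 and 2.13). Single cells weigh on several of these ratios: 286 of the 521 Ccl5 UMIs of the macrophage library labelled IL34KO, and 105 of the 106 S100a9 UMIs of the WT T-cell library, lay in 1 cell.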

How the results depend on the processing

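No paired analysis was possible because each group has 1 library and replicate numbers only name samples. Intervals cover counting error only, and a count of genes depends on the floor and the number of libraries a gene must pass in. Of 55 alternative shares 27 moved beyond their interval. At a threshold of 3 Ccl17 UMIs the shares were 1.06 and 1.87% in the IL34KO and WT macrophage libraries and 1.27 and 1.18% in the IL34KO and WT T-cell libraries. At 10 UMIs they were 1.22% (GVHD), 0.493 and 0.991% (macrophage) and 0.514 and 0.491% (T-cell). With the Nos2, Arg1 and Gpnmb gates left out they were 4.08% (GVHD), 2.91 and 4.46%, and 2.30 and 2.38%. Without the Epcam gate they were 2.45% (GVHD), 1.48 and 2.40%, and 1.41 and 1.23%, and without the Ccr7 gate 1.14 and 2.31%, and 1.25 and 1.24%. Thinning gave 0.752% (GVHD), 1.32 and 1.95%, and keeping shared barcodes 0.435% in BM.

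Against Ccl17-0 cells (17 higher, 46 lower) the counts were 27 and 23 without the Nos2, Arg1 and Gpnmb gates, 72 and 495 without the Epcam gate, 74 and 1955 with no floor, 9 and 14 at 100 CPM, 9 and 24 with GVHD included, and 18 to 29 and 52 to 85 with 1 library left out. Against C1q macrophages (19 and 41) there were 31 higher without the Epcam gate, 11 higher after thinning, 26 lower without the Nos2, Arg1 and Gpnmb gates, 84 and 1384 with no floor, 7 and 15 at 100 CPM, 9 and 25 with GVHD, and 21 to 30 and 44 to 79 with 1 library left out. Against Ccl17-high cells with Nos2, Arg1 or Gpnmb (7 and 34) there were 3 higher at 10 Ccl17 UMIs, 4 under each other cell filter, 3 and 18 after thinning, 83 and 182 with no floor, 3 higher at 100 CPM, 2 and 16 with GVHD, and 9 to 15 and 37 to 51 with 1 library left out. Between recipients, the macrophage counts (307 higher, 653 lower) were 100 and 133 without the Nos2, Arg1 and Gpnmb gates, 109 and 221 after thinning, 2900 and 3731 with no floor and 61 and 93 at 100 CPM, and 259 lower without the Epcam gate. The T-cell counts (358 and 456) were 184 and 136, 140 and 269, 2548 and 3230, and 55 and 43 under the first 4 of these.

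Values that reversed, as ratios of IL34KO over WT, were Mmp8 in the macrophage libraries after thinning (1.16), Ccl24 in the T-cell libraries at 10 Ccl17 UMIs (5.22), without the Nos2, Arg1 and Gpnmb gates (1.03) and without the Epcam gate (1.19), and Tnf in the T-cell libraries without the Nos2, Arg1 and Gpnmb gates (1.24). The neutrophil list's median log2 ratio in the T-cell libraries was 0.025 at 10 Ccl17 UMIs. The cause was not tested. Lcn2 had no ratio with cycling cells left out or after thinning, nor S100a9 in the T-cell libraries at 10 Ccl17 UMIs. No named gene reversed against Ccl17-0 cells in 600 alternative values, while 55 of these moved by more than the standard deviation between libraries. The genes were chosen for large ratios in each library. Leaving out a library could therefore not reverse them, and the absence of reversals supports nothing.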
